A study of Mus musculus with 2 samples.

Results

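Interferon response genes are a set of 8 genes that cells switch on when interferon, a family of secreted antiviral and immune signals, reaches their surface. The set was fixed by symbol, and all 8 symbols were found once each among the 27998 genes of the count matrices. Isg15, Ifit1, Ifit3, Irf7 and Bst2 are best known as antiviral genes of the type I interferon response, and Irf1, Iigp1 and Irgm1 as genes strongly induced by interferon-gamma. Their raw counts were read in islet cells of WT mice and of GKO mice, littermates on a C57BL/6N background in which both copies of the ghrelin gene are intact or deleted in every cell of the body from conception. The mice of both genotypes were male, 8 weeks old and fed standard chow with free access, and islets of 4 mice were pooled into 1 library per genotype after enzymatic dispersal and flow sorting of viable cells. Every value below therefore compares 1 library with 1 library. Intervals cover counting error only, and no test was made. Differences between mice or in the handling of the pools cannot be told apart from the difference between genotypes. Per the study, more GKO than WT cells entered the sort and fewer viable GKO cells came out. The part of this recovery in the values was not tested.

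Type I interferons, such as interferon-beta, signal through the receptor IFNAR and act on genes that carry a DNA sequence called the interferon-stimulated response element (ISRE). Interferon-gamma signals through a separate receptor, acts on genes with the gamma-activated sequence (GAS) and switches on IRF1, which in turn binds sites much like the ISRE. In pancreatic islets the response is known above all from viral infection and from autoimmune diabetes, where interferons reach endocrine and vascular cells from immune cells.

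RefSeq promoter windows, from 250 bases before to 50 bases after the start of transcription (build GRCm38.p6), were given for 7 of the 8 genes, and the ISRE letters GAAANNGAAA were searched in them on both strands. Of these 7 genes, 5 held a match, against 3.44% of all 32851 windows. By the GENCODE vM21 annotation (GRCm38), Isg15 (ENSMUSG00000035692) lies at chr4:156199424-156200818, Irf7 at chr7:141262706-141266481, Bst2 at chr8:71534255-71537456 and Irgm1 at chr11:48861968-48871683, all on the minus strand. Ifit1 lies at chr19:34640871-34650009, Ifit3 at chr19:34583531-34588731 and Irf1 at chr11:53770014-53778374, all on the plus strand. The matches are shown with 10 bases on each side because the same few letters recur in genes that behaved differently below. Capitals mark the matched letters, where matches that overlap or touch were joined. On the strand of the gene they read:
Isg15: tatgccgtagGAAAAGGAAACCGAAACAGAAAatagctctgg
Ifit1: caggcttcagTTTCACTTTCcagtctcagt
Ifit1: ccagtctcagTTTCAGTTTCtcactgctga
Ifit3: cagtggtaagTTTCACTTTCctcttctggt
Ifit3: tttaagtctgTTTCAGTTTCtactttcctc
Bst2: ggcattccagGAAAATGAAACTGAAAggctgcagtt
Irgm1: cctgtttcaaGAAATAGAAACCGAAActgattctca

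The Isg15 stretch lies at chr4:156200865-156200906 on the minus strand and holds 3 overlapping matches, the first starting 78 bases before the start of transcription. Ifit1 and Ifit3 are neighbours on chromosome 19, and each holds 2 separate matches, at chr19:34640775-34640804 and chr19:34640794-34640823 for Ifit1 and at chr19:34583363-34583392 and chr19:34583397-34583426 for Ifit3, all on the plus strand. The Bst2 stretch is at chr8:71537577-71537612 and the Irgm1 stretch at chr11:48871425-48871460, both on the minus strand with 2 overlapping matches. No match was found in the window of Irf7 or in either of the 2 windows of Irf1. Irf1, the factor that relays the interferon-gamma signal, instead held the GAS letters TTCNNNGAA, at chr11:53769914-53769942 on the plus strand, with the match in capitals:
Irf1: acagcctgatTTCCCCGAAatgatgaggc

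The GAS letters were in 8.30% of all windows, and of the 7 genes only Irf1 and Bst2 held them. In Bst2 the GAS match overlaps the ISRE stretch. These are matches of letters, and binding was not measured.

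A UMI (unique molecular identifier) marks 1 captured transcript. Droplet barcodes were left out under 500 genes or above 10% mitochondrial UMIs, which kept 7100 of 7792 WT barcodes and 6346 of 7289 GKO barcodes, and 18 barcode sequences occurred in both libraries. A barcode was put in a hormone class (beta, alpha, delta or gamma) by its leading hormone where that hormone made up at least 10% of its UMIs. The others were classed as endothelial, stromal or macrophage by the leading gene among Plvap, Dcn and C1qa, with at least 3 UMIs. The 7 classes held 6560 WT and 5585 GKO barcodes, with medians of 7096 to 37124 UMIs per barcode over classes and libraries. All 8 endothelial markers, all 7 stromal markers and all 8 macrophage markers had UMIs in their own class in both libraries, where their summed level was 22985 and 24020 CPM (UMIs of a gene per 1000000 UMIs of the summed class), 34449 and 37147 CPM, and 12776 and 15379 CPM, WT first. Beta barcodes were low in Mafa (2.21 and 4.24 CPM), and Abcc9 was at 0 in WT gamma barcodes. Ghrl, the deleted gene, was at 276 CPM in the WT library and 2.71 CPM in the GKO library. Of its 43634 WT UMIs, 42984 came from 6 barcodes, and of its 280 GKO UMIs, 276 came from 1 barcode. WT had 2265 beta, 588 endothelial, 293 stromal and 235 macrophage barcodes, and GKO had 872, 440, 715 and 489.

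In both libraries all 8 genes were higher in each of the 3 nonendocrine classes than in any of the 4 hormone classes. The gap between the lowest nonendocrine and the highest hormone class was widest for Isg15 (31.4-fold in WT and 30.2-fold in GKO) and narrowest for Irgm1 (2.22-fold and 1.53-fold). Among the 7 classes, beta barcodes had the lowest CPM of Ifit1, Irf7, Bst2, Irf1 and Irgm1 in both libraries, but hormones made up 61.3% of WT and 59.2% of GKO beta UMIs against 28.2% and 28.4% in alpha barcodes. With hormone UMIs left out of the total, the 3 nonendocrine classes stayed above the hormone classes for all 8 genes. For Irgm1 in GKO the gap was small, with 20.8 CPM in stromal and 17.3 CPM in delta barcodes and overlapping intervals. The place of beta changed: Bst2 was at 19.8 CPM in beta and 18.9 CPM in alpha barcodes of WT, and at 22.5 and 17.9 CPM in GKO. For Irgm1 in WT the same values were 6.84 CPM in beta and 6.72 CPM in alpha, with overlapping intervals.

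**Figure D1:**
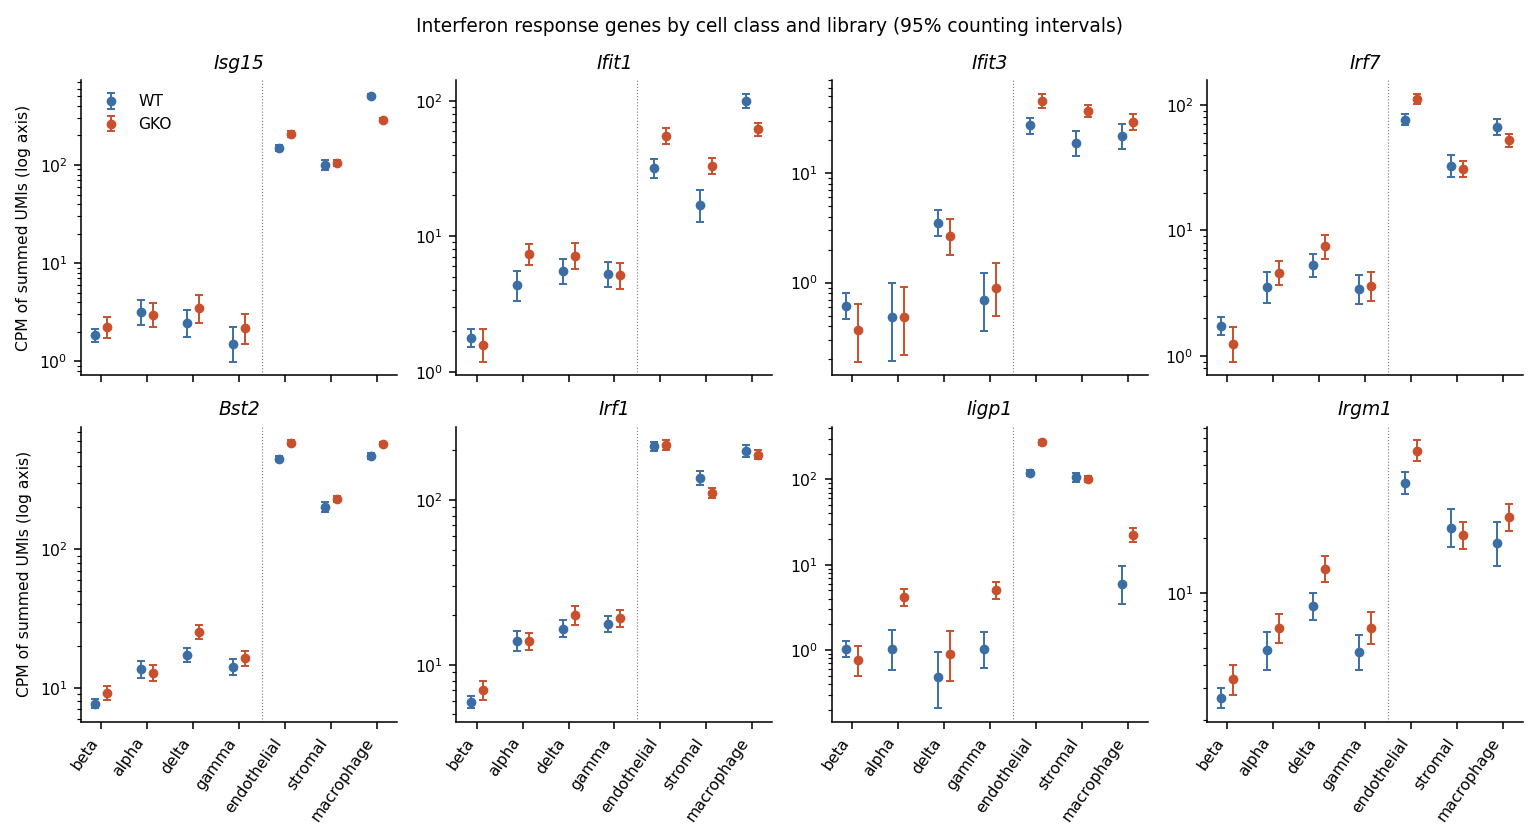
Level of each of the 8 genes in the 7 cell classes, as CPM of the summed UMIs on a log axis, in WT (blue) and GKO (red), with exact 95% Poisson intervals. The dotted line separates hormone classes on the left from nonendocrine classes on the right, and every gene is higher on the right in both libraries.

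Isg15, which encodes a ubiquitin-like protein that is attached to other proteins during infection, was highest in macrophages, at 506 CPM in WT and 288 CPM in GKO. Endothelial barcodes followed with 150 and 209 CPM, and stromal barcodes with 99.6 and 105 CPM. Hormone classes lay between 1.51 and 3.46 CPM, and among them no neighbour in the order was separated from the next by its interval. Ifit1, whose product binds foreign RNA caps, had the same order, with 100 and 61.4 CPM in macrophages, 31.8 and 55.2 CPM in endothelial barcodes and 16.9 and 33.2 CPM in stromal barcodes. In GKO its macrophage and endothelial intervals overlapped.

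Ifit3, a partner of IFIT1, was highest in endothelial barcodes, with 27.1 and 45.4 CPM, but its intervals overlapped between neighbouring nonendocrine classes in both libraries. Delta barcodes stood apart from the other hormone classes, with 3.53 CPM in WT and 2.64 CPM in GKO against values under 1 CPM. With hormone UMIs left out of the total, the delta and gamma intervals of Ifit3 overlapped in GKO. Irf7, the factor that amplifies type I interferon production, had 76.4 and 111 CPM in endothelial barcodes and 67.1 and 52.3 CPM in macrophages, and these 2 classes were separated in GKO but not in WT.

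Bst2, which encodes tetherin, a membrane protein that holds budding virus on the cell, was at a similar level in macrophages (469 and 576 CPM) and endothelial barcodes (448 and 585 CPM), with overlapping intervals in each library. Irf1 was likewise indistinguishable between endothelial barcodes (211 and 215 CPM) and macrophages (199 and 188 CPM), and lower in stromal barcodes (136 and 110 CPM).

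Iigp1, an immunity-related GTPase that attacks the vacuoles of intracellular parasites, had a different order from the antiviral genes. It was high in endothelial (120 and 271 CPM) and stromal barcodes (106 and 101 CPM) and low in macrophages (6.01 and 22.6 CPM). Irgm1, the regulatory GTPase of the same family, was highest in endothelial barcodes at 39.9 and 60.02 CPM, and its stromal and macrophage intervals overlapped in both libraries.

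The matrices precede the removal of free RNA, the transcripts of broken cells that enter every droplet. The level that free RNA and mixed barcodes could give was gauged from endothelial, stromal and macrophage markers, whose level in each hormone class was at most 1.28% of that in the class they mark. Isg15 in hormone classes was at 0.368 to 0.802 of the level this ratio gives. That level depends on the markers summed. In WT delta barcodes macrophage markers were at 0.979% of their own class, endothelial markers at 0.787% and stromal markers at 0.0219%. The macrophage markers did not each give the same level. Cx3cr1 was at 0.345 CPM in WT alpha, 0.0598 CPM in WT delta and 0.463 CPM in WT gamma barcodes, against 149 CPM in WT macrophages. All 8 macrophage markers summed to 159, 117 and 81.1 CPM in those classes, against 12776 CPM in WT macrophages. Cx3cr1 thus gives a lower level than the sum there, so whether Isg15 lies above free RNA in hormone classes is left undecided. The multiples of all 8 genes rest on summed markers and share this limit. Iigp1 was at 0.466 to 3.97 times the ratio level and Bst2 at 1.27 to 2.72 times. Irgm1 was at 8.09 to 22.9 times that level and Irf1 at 2.34 to 8.56 times, so that these genes stood above it in every hormone class. Ifit1 was at 1.94 to 8.41 times and Irf7 at 1.59 to 6.60 times. Ifit3 in delta barcodes was at 8.23 times that level in WT and 4.48 times in GKO.

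Each cell was also thinned to 2000 UMIs to compare shares of cells at 1 depth. In endothelial barcodes 59.0% of WT and 65.5% of GKO cells had a Bst2 UMI, and in macrophages 56.2% and 63.5%. In beta barcodes, where hormones made up most of the UMIs, 1.28% and 1.83% did. The other hormone classes ranged from 2.29% in WT alpha to 4.79% in GKO delta barcodes. At least 4 of the 8 genes were detected together in 8.78% of WT (51 of 581, 95% Clopper-Pearson interval 6.61 to 11.4) and 13.8% of GKO endothelial cells (60 of 435, 10.7 to 17.4). In macrophages the shares were 5.11% and 4.10%, and in stromal barcodes 3.18% and 2.07%. Over all hormone classes it was met by 2 WT delta cells, and 0 of 2263 WT beta cells allows a share of up to 0.133%, taken as 3 cells of the total.

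The comparison of GKO with WT asks how these genes differed when ghrelin was absent. A gene was counted as different at 1.5-fold where it had at least 20 UMIs over both libraries.

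**Figure D2:**
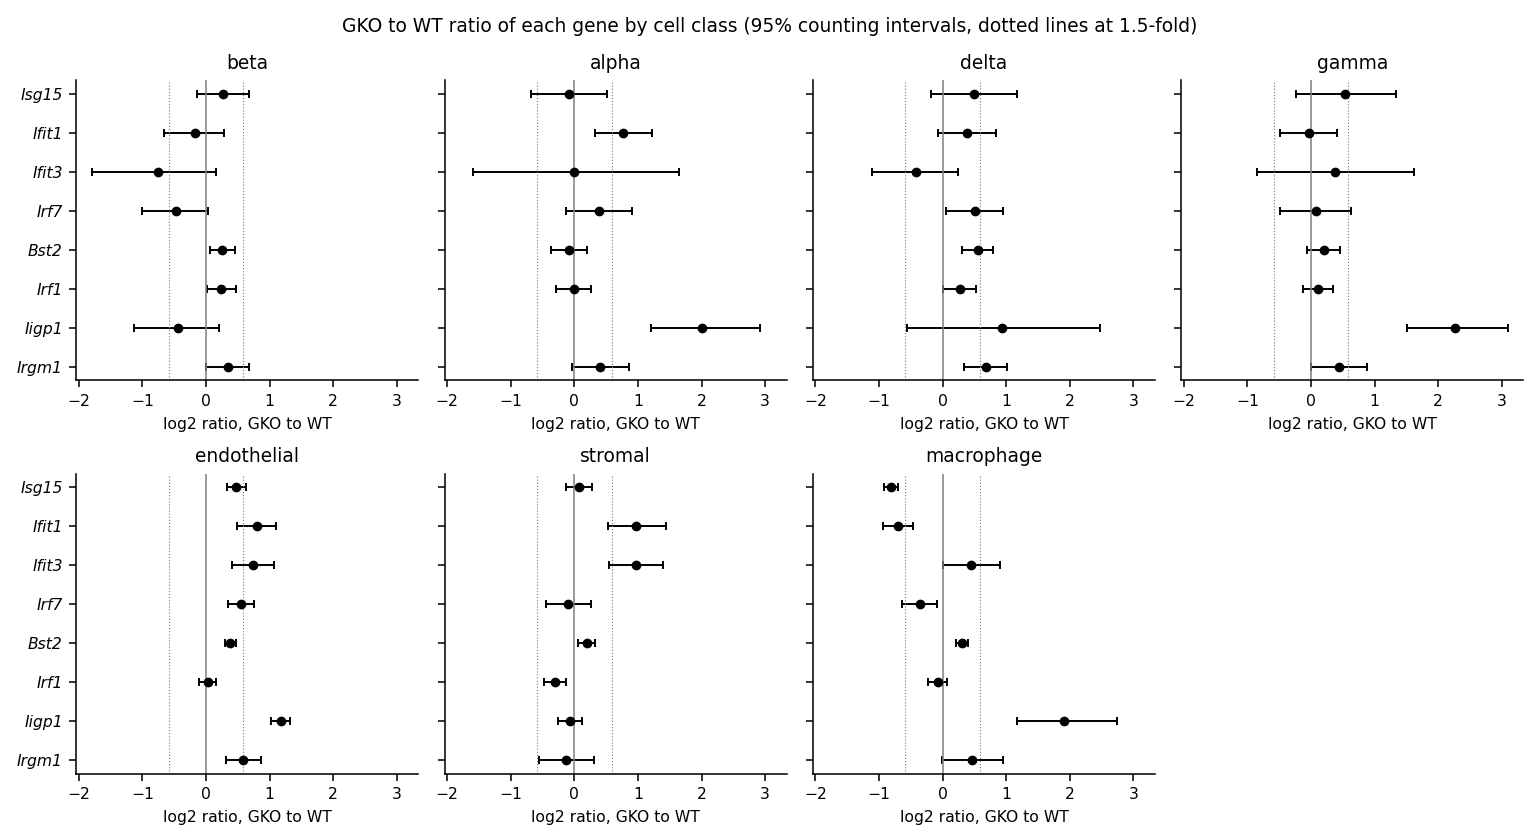
Log2 ratio of GKO to WT for each gene in each of the 7 classes, with exact 95% counting intervals and dotted lines at 1.5-fold. In endothelial barcodes every gene lies at or above 0, and in macrophages Isg15 and Ifit1 lie below 0 while Iigp1 lies above it. Of all genes counted in endothelial barcodes, 56.7% lie above 0.

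In endothelial barcodes, the cells that line islet capillaries, all 8 genes were at or above their WT level in GKO, and 4 of them were at least 1.5-fold higher and 0 lower. Of the 11283 genes counted, 56.7% were above their WT level. At 1.5-fold 6.37% were higher and 6.43% lower, or 12.8% in either direction. Iigp1 differed most, with 120 CPM in WT (95% interval 111 to 130) and 271 CPM in GKO (255 to 289), a log2 ratio of 1.18 (1.03 to 1.32). The median over the 8 genes was 0.57, against 0.05 over all genes counted.

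Among the antiviral genes, Ifit1 had 31.8 CPM in WT and 55.2 CPM in GKO (log2 ratio 0.79, 0.49 to 1.10), and Ifit3 had 27.1 and 45.4 CPM (0.74, 0.41 to 1.08). Irf7 was 1.46-fold, Isg15 1.39-fold and Bst2 1.31-fold higher in GKO, short of 1.5-fold but with intervals that left out 0. Among the interferon-gamma-inducible genes, Irgm1 had 39.9 and 60.02 CPM (0.59, 0.31 to 0.87), just past 1.5-fold. With TMM scaling Irgm1 was at 0.54, and 3 of the 8 genes passed. Irf1, the factor upstream of many of these genes, had 211 and 215 CPM (0.03, -0.11 to 0.16).

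The Iigp1 difference was spread over cells. After thinning, 18.1% of WT (95% interval 15.0 to 21.4) and 33.6% of GKO endothelial cells (29.1 to 38.2) had an Iigp1 UMI. In beta barcodes 0.221% and 0.115% did. The 1% of barcodes with the most Iigp1 held 11.6% and 11.1% of its UMIs, and without them the log2 ratio was 1.18. The shares for Isg15 were 19.6% and 26.4%, and for Irf1 33.7% and 33.1%. The Ifit3 ratio was 0.01 when cells were thinned, and its share of cells was 6.37% and 7.13%. With cells thinned to 5000 UMIs the Ifit3 shares were 11.1% and 17.9%.

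**Figure D3:**
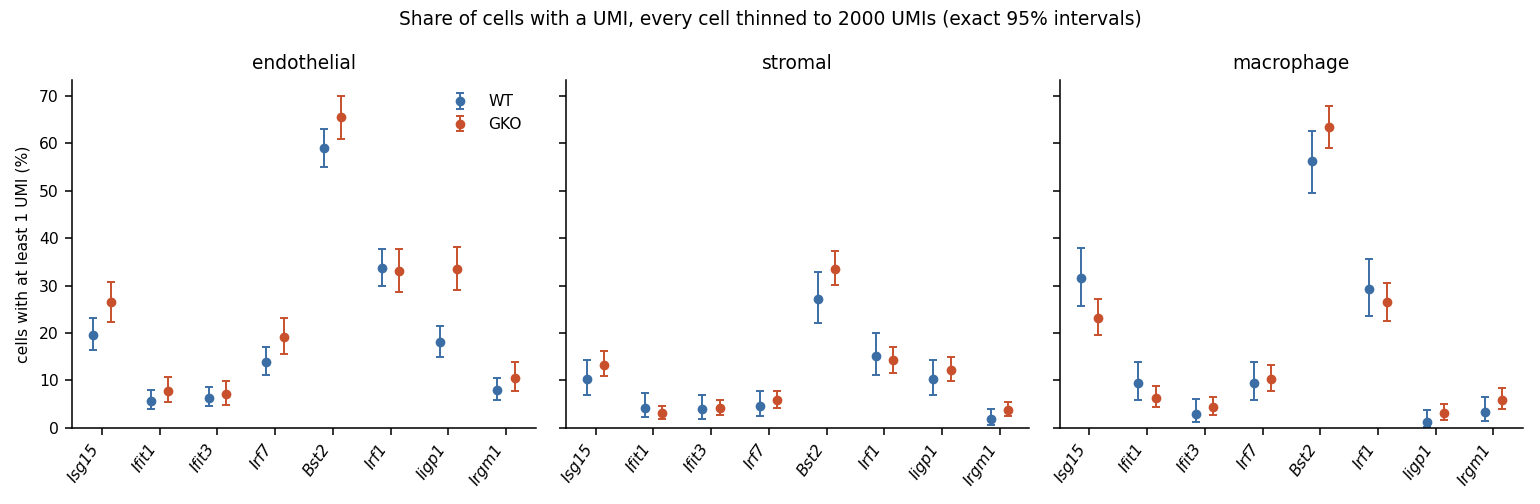
Share of endothelial, stromal and macrophage cells with at least 1 UMI of each gene, in percent, after thinning each cell to 2000 UMIs, in WT (blue) and GKO (red) with exact 95% intervals. Iigp1 in endothelial cells is at 18.1% in WT and 33.6% in GKO with intervals that do not overlap, whereas Irf1 is at 33.7% and 33.1%.

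The wider pathway was read from 9 lists with 153 genes in the matrices, none of them among the 8. The lists were chosen with earlier results of these data known. The list of GTPases inducible by interferon-gamma held 18 genes, of which 15 were counted in endothelial barcodes. Of these, 11 were at least 1.5-fold higher in GKO and 0 were lower, with a median log2 ratio of 0.92. Over all genes counted in endothelial barcodes, 6.37% were higher and 6.43% lower, with a median of 0.05. Igtp had 31.6 CPM in WT and 80.8 CPM in GKO (log2 ratio 1.36, 1.08 to 1.64), Gbp3 had 32.0 and 77.1 CPM (1.27, 0.99 to 1.55) and Gbp4 had 55.3 and 118 CPM (1.10, 0.88 to 1.32). These genes encode GTPases that act on intracellular microbes, like Iigp1. Summed over the list, WT had 667 CPM and GKO 1119 CPM.

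Of the other lists in endothelial barcodes, 11 of 45 antiviral effectors and 7 of 26 other interferon-gamma-inducible genes were at least 1.5-fold higher, and 0 and 1 were lower. The shares over all genes counted were 6.37% higher and 6.43% lower. Among 5 receptors counted, Ifngr2, a chain of the interferon-gamma receptor, was 1.61-fold higher, with 50.2 and 80.8 CPM. Tap1, the peptide transporter of antigen presentation, had 52.0 and 96.3 CPM, and the class II gene H2-Ab1 had 138 and 200 CPM. The genes that were lowest in GKO relative to WT by the naming rule were Ifitm1 (26.8 and 18.4 CPM), Icam1 (42.7 and 33.0 CPM) and the feedback inhibitor Socs3 (149 and 132 CPM). Summed macrophage markers in endothelial barcodes were 77.9 CPM in WT and 98.4 CPM in GKO, or under 1% of their level in macrophages, and hormones made up 1.20% and 0.67% of the UMIs. B cell markers summed to 21.3 CPM in WT and 33.8 CPM in GKO endothelial barcodes. Acinar markers went the other way, from 537 to 133 CPM. Their part in the result was not tested.

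**Figure D4:**
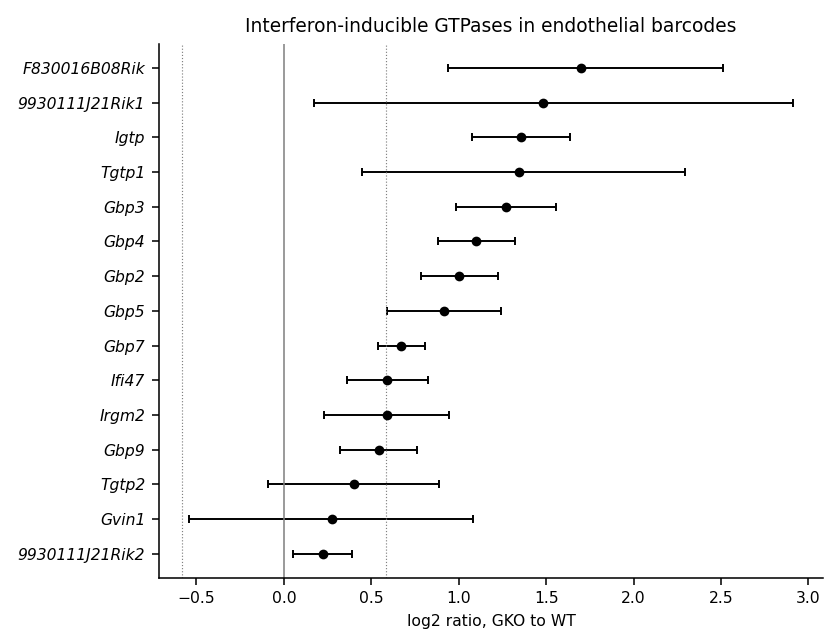
Log2 ratio of GKO to WT for the 15 interferon-gamma-inducible GTPases counted in endothelial barcodes, with exact 95% counting intervals and dotted lines at 1.5-fold. All 15 ratios lie above 0, and 11 lie past the upper dotted line. Of all genes counted in endothelial barcodes, 56.7% lie above 0 and 6.37% past that line.

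In macrophages, the resident immune cells of the islet, the genes differed in both directions. Isg15 and Ifit1 were at least 1.5-fold lower in GKO and Iigp1 was higher. Of the 11247 genes counted, 10.7% were lower and 8.88% higher, or 19.6% in either direction. Isg15 had 506 CPM in WT (95% interval 481 to 533) and 288 CPM in GKO (274 to 303), a log2 ratio of -0.81 (-0.92 to -0.71). Ifit1 had 100 and 61.4 CPM (-0.71, -0.94 to -0.47). After thinning to 2000 UMIs, 31.5% of WT (25.6 to 37.8) and 23.2% of GKO macrophages (19.5 to 27.2) had an Isg15 UMI. For Ifit1 the shares were 9.36% (5.96 to 13.8) and 6.35% (4.36 to 8.90). The intervals of WT and GKO overlapped for each gene.

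Iigp1 had 6.01 CPM in WT and 22.6 CPM in GKO (log2 ratio 1.91, 1.17 to 2.74), from 17 and 117 UMIs, and 1.28% and 3.07% of thinned cells had a UMI, with overlapping intervals. Irf7 was slightly lower in GKO (-0.36, -0.63 to -0.08), Bst2 slightly higher (0.30, 0.20 to 0.39), and for Irf1 (-0.08) and Irgm1 (0.47) the interval held 0. Ifit3, unlike its partner Ifit1, was higher in GKO, with 21.6 and 29.4 CPM (0.45, 0.0081 to 0.90). Summed markers of other cell types also differed in macrophage barcodes, from 11.3 CPM in WT to 74.9 CPM in GKO for pericyte, 113 to 183 CPM for endothelial, 33.9 to 70.7 CPM for stromal and 92.9 to 26.7 CPM for B cell markers. Endocrine markers were far higher, from 10933 to 8333 CPM for beta and 11343 to 7098 CPM for alpha. For delta they went from 11888 to 8644 CPM and for gamma from 16834 to 11446 CPM. Hormones made up 3.19% of WT and 2.30% of GKO macrophage UMIs, and 1.49% and 1.26% with the marker limit at 10 UMIs. Their part in the result was not tested. When the hormone limit was raised to 25%, the WT macrophage class grew from 235 to 519 barcodes and 16.2% of its UMIs were hormone UMIs. Under that limit Isg15 stayed lower at -0.25, Ifit1 at -0.13, and the sum of the 5 antiviral genes turned from -0.21 to 0.31.

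Macrophages were also where the ligand was found. Ifnb1, which encodes interferon-beta, had 431 UMIs in the WT library and 491 in the GKO library, of which 90.5% and 88.8% lay in macrophage barcodes. Ifnb1 was detected in 52 of 235 WT macrophages (22.1%, 17.0 to 28.0) and in 51 of 489 GKO macrophages (10.4%, 7.86 to 13.5), and in 0.353% and 0.115% of beta barcodes, whose median depth was 37124 and 35811 UMIs against 10514 and 9182 in macrophages. After thinning to 2000 UMIs the shares were 14.04% (9.87 to 19.2) and 6.97% (4.87 to 9.60). Of 8 further type I and type III interferon genes searched, none had more than 2 UMIs in a library. Ifng, which encodes interferon-gamma, had 33 UMIs in 6 WT barcodes and 44 UMIs in 13 GKO barcodes. Of these, 29 WT and 24 GKO UMIs were in 3 and 6 barcodes outside every class and marker group. Another 3 WT and 17 GKO UMIs were in 2 of 46 and 5 of 63 barcodes led by the B cell gene Cd79a.

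The macrophages with and without an Ifnb1 UMI were then taken apart, a split chosen after the values had been seen. Isg15 and Ifit1 were concentrated in the macrophages with Ifnb1, where Isg15 had 1300 CPM in WT and 1318 CPM in GKO (log2 ratio 0.02, -0.13 to 0.16). Ifit1 had 380 and 315 CPM there (-0.27, -0.56 to 0.01). These barcodes held 83.1% of all macrophage Ifit1 UMIs in WT and 57.9% in GKO. Ifit3 had 32.2 and 73.6 CPM there, from 20 and 43 UMIs (1.19, 0.40 to 2.04).

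In macrophages without Ifnb1, Isg15 had 283 CPM in WT and 157 CPM in GKO (log2 ratio -0.85, -1.003 to -0.689). The share of macrophages with Ifnb1 was 22.1% in WT and 10.4% in GKO, and its part in the level of the whole class was not tested. Macrophages with Ifnb1 held 56.4% of the Isg15 UMIs of the class in WT and 51.6% in GKO. Ifit1 had 21.7 and 29.2 CPM in macrophages without Ifnb1 (0.42, -0.061 to 0.93). Irf1 was 1.55-fold higher with Ifnb1 in WT (275 against 177 CPM) and 1.41-fold higher in GKO (253 against 180 CPM). Bst2 differed by less, with 525 against 453 CPM in WT and 530 against 582 CPM in GKO. Iigp1 with and without Ifnb1 was at 9.66 and 4.98 CPM in WT, from 6 and 11 UMIs, and at 6.84 and 24.6 CPM in GKO, from 4 and 113 UMIs.

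**Figure D5:**
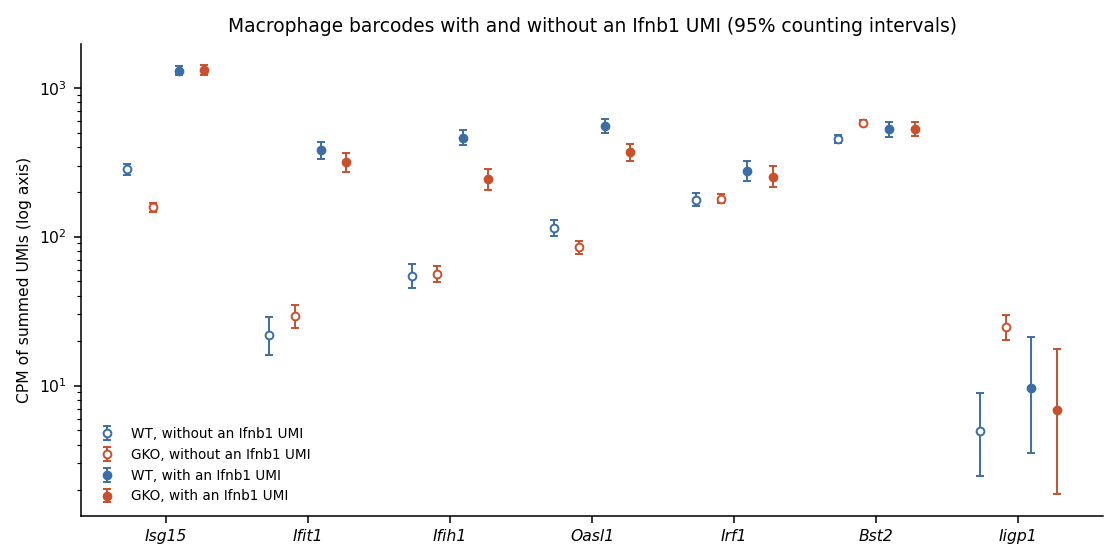
CPM on a log axis of 5 of the 8 genes and of Ifih1 and Oasl1 in macrophage barcodes without an Ifnb1 UMI (open points) and with one (filled points), in WT (blue) and GKO (red), with exact 95% intervals. Isg15 and Ifit1 are higher with Ifnb1 in both libraries, and Isg15 is at 1300 and 1318 CPM there, while Bst2 shows little difference.

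By the naming rule, the pathway genes with the largest differences in macrophages were Cxcl9 (76.7 and 189 CPM), Gbp2 (26.5 and 59.5 CPM) and Ly6c1 (8.13 and 17.2 CPM) on the higher side. On the lower side they were the RNA sensor Ifih1 (144 and 77.5 CPM), the antiviral gene Oasl1 (210 and 117 CPM) and the adhesion gene Icam1 (157 and 92.5 CPM). Cxcl9, a chemokine that draws T cells, was in 8.09% of WT and 9.20% of GKO macrophages and in 0.397% and 0.229% of beta barcodes, and 744 of its 980 GKO UMIs came from 5 barcodes. For Ly6c1, 19 of 23 WT UMIs and 81 of 89 GKO UMIs did, and for Gbp2 126 of 308 in GKO. Ifih1 was higher in macrophages with Ifnb1 in both libraries, at 462 and 243 CPM with it and 54.8 and 56.4 CPM without. Among macrophages with Ifnb1 it was lower in GKO (log2 ratio -0.93, -1.23 to -0.63). Oasl1 was at 550 and 368 CPM with Ifnb1 (-0.58, -0.83 to -0.33) and at 115 and 84.9 CPM without (-0.43, -0.66 to -0.20). Of 14 interferon-gamma-inducible GTPases counted, 5 were higher and 0 lower, against 8.88% and 10.7% of all genes counted in macrophages.

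Stromal barcodes, which hold the fibroblast-like cells around islets and vessels, showed higher Ifit1 and Ifit3 in GKO, with 2 of 8 genes at least 1.5-fold higher and 0 lower. Of the 11924 genes counted, 10.5% were higher and 8.37% lower, or 18.9% in either direction. Ifit1 had 16.9 CPM in WT and 33.2 CPM in GKO (log2 ratio 0.97, 0.53 to 1.44), and Ifit3 had 18.8 and 36.7 CPM (0.96, 0.54 to 1.40). Both rested on few cells. The share of thinned cells with Ifit1 was 4.24% in WT and 3.11% in GKO, against 0.354% and 0.459% in beta barcodes, and the thinned log2 ratio was -0.050. With cells thinned to 5000 UMIs the shares were 6.95% and 8.91%. In GKO, 1 barcode held 24 Ifit1 UMIs and the 1% with the most held 40.7% of them. For Ifit3 in GKO, 1 barcode held 32 UMIs and the 1% with the most held 39.4%. Without that 1% in each library, the log2 ratio was 0.70 (0.17 to 1.27) for Ifit1 and 0.64 (0.15 to 1.16) for Ifit3.

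The other genes differed by less in stromal barcodes. Bst2 was slightly higher in GKO (0.19, 0.06 to 0.33), Irf1 slightly lower (-0.30, -0.48 to -0.12), and Isg15 (0.07), Irf7 (-0.09), Iigp1 (-0.07) and Irgm1 (-0.13) had intervals that held 0. In contrast to endothelial barcodes, 1 of 13 GTPases counted was higher and 1 lower, against 10.5% and 8.37% of all genes counted.

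The pathway genes with the largest stromal differences were Usp18, which damps type I interferon signalling (4.79 and 15.4 CPM), and the antiviral genes Samd9l (17.6 and 36.2 CPM) and Ifit2 (8.30 and 16.8 CPM), all higher in GKO. Cxcl9 (112 and 6.03 CPM), Serpina3g (87.1 and 13.3 CPM) and Cxcl10 (206 and 79.6 CPM) were lower. Of the 350 WT Cxcl9 UMIs in stromal barcodes, 315 came from 5 barcodes. In stromal barcodes, pericyte markers summed to 424 CPM in WT and 926 CPM in GKO, acinar markers to 252 and 677 CPM, ductal markers to 51.7 and 107 CPM, macrophage markers to 68.0 and 131 CPM and endothelial markers to 296 and 92.1 CPM, and their part in these differences was not tested.

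In the hormone classes the levels were low, and 5 ratios passed 1.5-fold: Ifit1 and Iigp1 higher in alpha, Irgm1 higher in delta, Iigp1 higher in gamma and Ifit3 lower in beta. Over all genes counted, the shares higher and lower were 6.05% and 4.99% in beta, 4.72% and 4.68% in alpha, 4.72% and 4.26% in delta, and 5.8% and 3.27% in gamma. In either direction they were 11% in beta, 9.41% in alpha, 8.97% in delta and 9.07% in gamma. Iigp1 in alpha barcodes had 1.03 CPM in WT and 4.16 CPM in GKO, from 15 and 78 UMIs. Iigp1 in gamma barcodes had 1.04 and 5.01 CPM, from 18 and 78 UMIs.

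Neither was spread over cells. In GKO, 1 alpha barcode held 27 of the Iigp1 UMIs and 1 gamma barcode held 46, and the 1% of barcodes with the most held 98.7% and 88.5%. Without that 1%, the alpha level was 0 in WT and 0.054 CPM in GKO, and the gamma level was 0.294 and 0.587 CPM. Only 0.668% of WT and 1.07% of GKO alpha barcodes had an Iigp1 UMI, so leaving out 1% had to bring the alpha level near 0. In gamma barcodes the shares with an Iigp1 UMI were 1.81% and 2.39%. The alpha barcode with 27 Iigp1 UMIs also held 12 Gbp2 and 10 Igtp UMIs among 10835, with 2727 Gcg UMIs, 1 C1qa UMI and no Plvap or Dcn UMI. The next 2 GKO alpha barcodes, with 19 and 9 Iigp1 UMIs, held 39 and 6 C1qa UMIs and 92 and 30 Cd74 UMIs, and the first 2 in WT, with 5 and 4 Iigp1 UMIs, held 15 and 11 Plvap UMIs. The gamma barcode with 46 Iigp1 UMIs held 4735 Gcg UMIs beside 5597 Ppy UMIs among 37459, so that both hormones passed the 10% limit, and it had 3 Igtp UMIs and no Gbp2 UMI.

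Ifit1 in alpha barcodes had 4.35 and 7.37 CPM (0.76, 0.32 to 1.22), and the ratio was 0.76 without the 1% of barcodes with the most of it. Irgm1 in delta barcodes had 8.44 and 13.5 CPM (0.68, 0.33 to 1.02), and delta barcodes had the highest Irgm1 of the hormone classes in both libraries. Bst2 in delta barcodes had 17.2 and 25.3 CPM (0.55, 0.31 to 0.80). Ifit3 in beta barcodes had 0.618 and 0.366 CPM from 55 and 12 UMIs, with an interval that held 0 (-1.79 to 0.16).

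In beta barcodes 4 of the 8 genes were above and 4 below their WT level, where 66.5% of the 14449 genes counted were above it. Isg15 had 1.84 and 2.23 CPM, Irgm1 2.65 and 3.35 CPM, and the median ratio over the 8 was 0.03, against 0.08 over all genes. The sum of the 5 antiviral genes had a log2 ratio of 0.10, which turned to -0.45 without the top 7.6% of doublet scores and to -0.51 without barcodes that held genes of another class. The WT beta barcode with the most Iigp1 carried UMIs of all 8 genes, with 36 Isg15 and 18 Iigp1 UMIs among 47702. This barcode also held 15448 Ins2, 119 Cd74, 40 H2-Ab1, 9 Krt19 and 1 C1qa UMIs. The ductal gene Krt19 had 210 UMIs over all WT beta barcodes, and whether the barcode was mixed was not tested. The barcode was picked out because it held the most Iigp1 of its class, and other beta barcodes with all 8 genes were not counted.

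Across the 14 sums of 7 classes and 2 libraries, the 8 genes followed each other, with Pearson correlations of log2(CPM + 1) from 0.727 for Ifit1 and Iigp1 to 0.9901 for Bst2 and Irf1. The sums share libraries, depth and class rules, and nonendocrine classes lie far above hormone classes, so that many genes correlate strongly. Of 9333 genes with at least 20 CPM in a sum, the most like Isg15 were Sp110, Fxyd5 and Ppp1r18, and the most like Irf7 were H2-K1, Tpm3 and Pvr. For Bst2 they were Rcsd1, B2m and Ehbp1l1, for Irf1 they were Tln1, Mcl1 and Bst2, and for Ifit3 they were Cat, Gsdmd and Cept1. For Ifit1 they were Sh3bgrl3, Skap2 and Cfl1, for Iigp1 Arhgap10, Slc12a4 and Dram1, and for Irgm1 Ppia, Psmb10 and Uba7. The highest coefficient for each gene lay between 0.978 and 0.995. By Spearman's rho the leading genes were others, except Fxyd5 for Isg15, Cfl1 for Ifit1 and Pvr for Irf7.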

How the data were processed

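Per the labels and the study's methods, the authors sequenced transcript 3′ ends of islet cells captured in droplets, mapped the reads to build mm10 with Cell Ranger 5.0.1, and deposited raw UMI counts per gene and barcode from before ambient RNA removal. The totals were 158067110 (WT) and 103511757 UMIs (GKO).

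The genes, classes and lists were chosen with earlier results of these data known. UMIs were summed by class and library and expressed as CPM, with exact Poisson intervals. Ratios have exact conditional binomial intervals and shares have Clopper-Pearson intervals, at 95%. Thinning to 2000 UMIs left out shallower cells. No doublets were removed in the values reported. Gbp6, present on 2 rows, was left out of the pathway lists, which hold 153 of 160 genes.

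Pathway genes were named by a rule, the 3 highest and 3 lowest ratios per class among genes with at least 100 UMIs over both sums, 20 UMIs in 1 of them and an interval that left out 0. Ifngr2, Tap1 and H2-Ab1 in endothelial barcodes were chosen after their values were seen. Ratios were checked on counts simulated from the Poisson model that the intervals assume. UMIs gathered in a few cells were not simulated, so the check does not cover them. Alternatives changed the barcode filters, class limits, doublets, scaling, cell weights, depth, fold and measure of likeness. Added after the data were seen were leaving out the 1% of barcodes with the most UMIs of a gene, and the split by Ifnb1. The tools were scanpy 1.11.5, pandas 2.3.3, scipy 1.17.1, numpy 2.4.6 and matplotlib 3.10.9 in Python 3.11.15, and edgeR 4.0.16 in R 4.3.3 for TMM factors.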

Additional observations from a re-analysis of the deposited data

Results flagged for a closer look

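Isg15 and Ifit1 differed between the genotypes in opposite directions in different cell classes. The log2 ratio of GKO to WT for Isg15 was 0.48 in endothelial and -0.81 in macrophage barcodes. For Ifit1 it was 0.76 in alpha, 0.79 in endothelial, 0.97 in stromal and -0.71 in macrophage barcodes. With cells thinned to 2000 UMIs the stromal Ifit1 ratio was -0.050, and with the hormone limit at 25% the macrophage Ifit1 ratio was -0.13. Each class is 1 sum per library, and the difference between classes was not tested.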

How the results depend on the processing

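No paired analysis was possible because each genotype is 1 library. With 1 library per genotype no library could be left out, and the intervals of levels and ratios cover counting error only. They take every UMI as independent and leave out the spread between cells of a library. Where a few barcodes hold many of the UMIs, these intervals are therefore too narrow. Over 10 alternatives, the sums of the 5 antiviral and of the 3 interferon-gamma-inducible genes in endothelial barcodes kept their direction, from 0.41 to 0.50 and from 0.51 to 0.61. TMM scaling moved ratios by -0.10 to 0.02. The antiviral sum moved, with hormone classes from 25% of UMIs, from 0.17 to 0.48 in alpha, from 0.17 to 0.50 in gamma and from -0.21 to 0.31 in macrophages, and the interferon-gamma-inducible sum to 0.53 in alpha, 0.64 in delta and 0.57 in macrophages. That limit moved barcodes with 10% to 25% hormone into the marker classes. With marker classes from 10 UMIs the antiviral sum in macrophages was -0.32, and without the top 7.6% of doublet scores it was -0.45 in beta, against 0.10 with all barcodes. Without barcodes that held genes of another class it was -0.51 in beta, -0.086 in gamma and 0.49 in stromal barcodes, and the interferon-gamma-inducible sum in stromal barcodes was -0.0091. With equal weight per cell the latter was -0.059. After thinning to 2000 UMIs the antiviral sum in macrophages was -0.11, and the interferon-gamma-inducible sum was 0.92 in beta, 0.68 in gamma and 0.16 in stromal barcodes, the last against -0.19 without thinning. Ifit1 in stromal barcodes reversed to -0.050 on thinning. Apart from the changes of barcodes that each setting makes, the cause was not tested.

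Pathway genes past 1.5-fold were 28 of 122 counted in beta, 15 of 106 in alpha, 17 of 100 in delta and 18 of 95 in gamma. In endothelial, stromal and macrophage barcodes they were 33 of 121, 28 of 121 and 31 of 133. Over all genes counted, the shares in either direction were 11% in beta, 9.41% in alpha, 8.97% in delta and 9.07% in gamma. Those shares were 12.8% in endothelial, 18.9% in stromal and 19.6% in macrophage barcodes. At 100 UMIs or more, the counts of pathway genes were 8 in beta, 6 in alpha, 7 in delta, 7 in gamma, 17 in stromal and 18 in macrophage barcodes. With no filter on UMIs they were 41 in alpha, 47 in delta and 55 in gamma. Past 2-fold they were 10 in beta, 8 in alpha, 6 in gamma, 11 in endothelial, 13 in stromal and 8 in macrophage barcodes. Shares over all genes at these other limits are not given, so these counts stand without a background.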

Other observations

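Outside the 7 classes, kept barcodes were described by their leading marker. In 38 GKO barcodes led by the neutrophil gene S100a8, Irf1 was at 1646 CPM (95% interval 1349 to 1989) and Isg15 at 631 CPM (453 to 856), with 64995 UMIs in all. In 5 WT barcodes of that kind, Irf1 had 2 UMIs and Isg15 none (95% interval 0 to 131 CPM). In 71 WT and 84 GKO barcodes led by the ductal gene Krt19, Irf1 was at 141 and 470 CPM and Iigp1 at 21.9 and 101 CPM. The pericyte gene Rgs5 led 181 WT and 300 GKO barcodes, in which Iigp1 was at 23.0 and 48.2 CPM and Ifit3 at 10.9 and 29.6 CPM. A single barcode in each library was led by Siglech, a plasmacytoid dendritic cell gene, and Bst2 made up 26 of 7892 UMIs in the WT barcode and 24 of 6900 in the GKO barcode.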
